A study of Mus musculus with 13 samples.

Results

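The genes described here encode splicing factors and heterogeneous nuclear ribonucleoproteins (hnRNPs) and were read from RNA sequencing of mouse liver. They are the protein-coding genes of the liver table whose symbol starts with Srsf, Hnrnp, Sf3a or Sf3b, Snrp, Snrnp, U2af, Prpf, or Rbm followed by a digit. The rule found 101 of the 11779 listed genes, of which 11396 are protein-coding, and 2 further genes that match the pattern are not analysed here. The livers came from Balb/c mice injected through the tail vein with antisense oligonucleotides (ASOs) joined to GalNAc, a sugar that hepatocytes take up through their surface receptor. A group of 3 mice (Liver LL35 ASO) received a mix of 5 ASOs against LL35, the long non-coding RNA also known as Falcor. A control group of 3 mice (Liver Luc ASO) received an ASO against firefly luciferase, a gene that mice do not carry. All 6 livers were taken on day 5. Both groups carried the GalNAc conjugate, and no uninjected liver was among the samples, so the levels below are those of ASO-treated liver. The 7 libraries of AML12 hepatocytes are not analysed here.

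The liver table holds 1 row for each gene and no value for a single mouse. The value used here is the authors' mean normalized count, which is the number of reads on a gene after scaling each library, averaged over the livers compared. The mean mixes both treatments and has no SD and no n, so nothing was tested between Liver Luc ASO and Liver LL35 ASO, and no order of neighbouring genes can be judged against a spread. The depth of each library is unknown. Counts grow with the length of a transcript, so levels of different genes were compared per kb of merged exons (the union of all annotated exons of a gene), written below as per exon kb. Levels per kb of the longest coding sequence (per coding kb) are given as a second scale, and the members that change sides of the protein-coding median between the scales are named together after the role groups.

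Introns are removed from pre-mRNA by the spliceosome, which is built from small nuclear ribonucleoproteins (snRNPs), each a small RNA held in a ring of Sm proteins with proteins of its own. The U1 snRNP recognizes the 5′ splice site, U2AF and the U2 snRNP recognize the 3′ splice site and branch point, and the U4/U6.U5 tri-snRNP brings the parts that form the catalytic centre. SR proteins, rich in arginine and serine, mostly promote the use of nearby splice sites, whereas many hnRNPs bind along the transcript and can repress them. In hepatocytes these factors process the long pre-mRNAs of secreted and metabolic proteins and shape liver-specific isoforms.

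The count of a gene can depend on sequence that it shares with other genes, because the counting used by the authors keeps only reads that map to a single place. A pair that shares sequence at the lowest count, and the pair of members that share the largest part of their sequence with each other, are printed here. Snrpf encodes SmF, a protein of the Sm ring, and had the lowest mean normalized count of the 101 genes (17.2). Its coding bases 4 to 258 (GRCm38 chr10:93583467-93588123, minus strand, exons joined) were set against the processed pseudogene Gm13092 (chr4:150315180-150315434, minus strand). The sequences are identical at 98.8% of 255 bases, and capitals mark the 3 bases that differ.
Snrpf: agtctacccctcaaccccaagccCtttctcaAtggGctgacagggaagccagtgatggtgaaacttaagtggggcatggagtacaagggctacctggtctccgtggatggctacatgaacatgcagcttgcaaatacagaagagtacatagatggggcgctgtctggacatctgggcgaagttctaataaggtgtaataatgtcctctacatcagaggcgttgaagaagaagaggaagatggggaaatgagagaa
Gm13092: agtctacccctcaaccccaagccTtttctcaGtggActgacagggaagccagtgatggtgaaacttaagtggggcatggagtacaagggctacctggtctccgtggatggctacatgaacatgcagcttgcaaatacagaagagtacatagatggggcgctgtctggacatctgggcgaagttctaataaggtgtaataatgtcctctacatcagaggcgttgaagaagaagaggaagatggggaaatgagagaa
The longest identical run is 219 bases, and 170 words of 50 bases are the same in both. The other pair is Rbm12b1 and Rbm12b2, RNA-binding protein genes that lie close together on chromosome 4. The first 150 coding bases of Rbm12b1 (GRCm38 chr4:12144030-12144179, plus strand, exonic) are the same at every base as those of Rbm12b2 (chr4:12093143-12093292, plus strand), with no differing base to capitalize.
Rbm12b1: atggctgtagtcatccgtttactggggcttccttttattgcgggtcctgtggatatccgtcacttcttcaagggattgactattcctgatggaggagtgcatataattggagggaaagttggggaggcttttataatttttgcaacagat
A read from within these 150 bases cannot be placed on one of the 2 genes.

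The splicing factor and hnRNP genes were mostly at middle to high levels in liver. Their mean normalized counts ran from 17.2 for Snrpf to 4393 for Hnrnpu, a ratio of 255, with a median of 379 against 244 over all listed protein-coding genes. Per exon kb, their median was 74.4 against 52.1, and 65 of 101 lay above the protein-coding median and 36 below it. Per coding kb, the medians were 316 and 168, and 71 members lay above. Few were at the extremes, as 7 of 101 were above the 90 percentile of protein-coding genes per exon kb. At the low end, 6 members (5.94%) had a mean under 50, against 14.7% of listed protein-coding genes. The table starts at a mean of 15.6, so members below that level could not be seen. All 101 members together made up 0.619% of the summed mean normalized counts, whereas Alb, the gene of serum albumin, made up 10.8% alone. The histogram of levels shows the members shifted to the right of all protein-coding genes but short of their high tail.

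**Figure D1:**
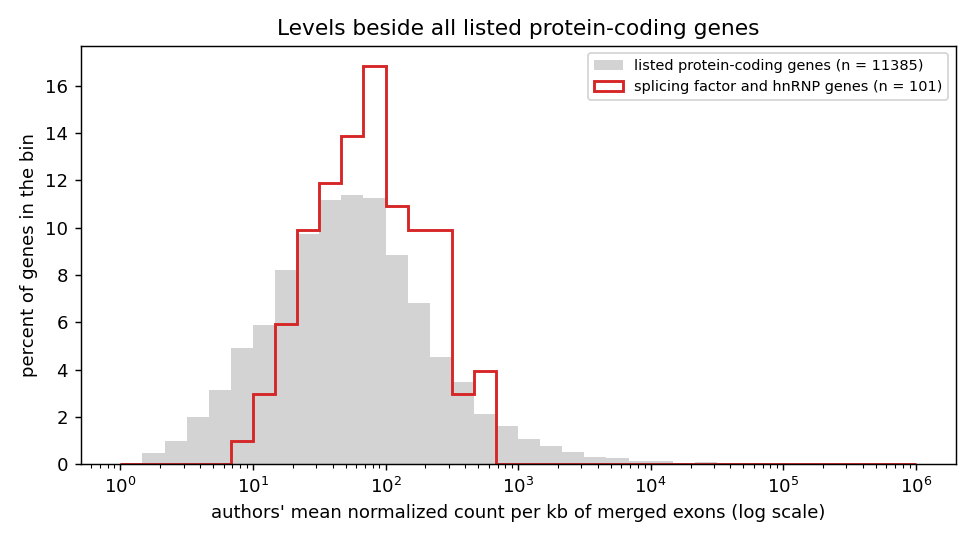
Percent of genes in each bin of the authors' mean normalized count per exon kb (log scale), for the 101 splicing factor and hnRNP genes (red line) and the listed protein-coding genes with an annotated length (grey). The members centre on 74.4 and the protein-coding genes on 52.1, and no member reaches the levels of the most abundant liver transcripts.

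Hnrnpa2b1 had the highest level per exon kb, at 589, followed by Srsf2 at 570.0, Srsf5 at 563, Prpf8 at 550.1 and Hnrnpab at 459.9. The next were Hnrnpu at 379, Srsf6 at 340.4, Rbm39 at 303, Rbm47 at 277 and Hnrnpa0 at 255. They comprise 4 hnRNPs, 3 SR proteins, the tri-snRNP protein Prpf8 and 2 RBM proteins. Of them, 8 were also among the top 10 per coding kb and 8 among the top 10 by mean normalized count. The 10 members highest by mean held 37.7% of the members' summed counts. The lowest levels per exon kb were those of Snrpn (9.24), Rbm43 (11.4), Rbm41 (12.9), Rbm38 (13.7) and Snrpc (16.2). The lowest 5 means were those of Snrpf (17.2), Snrpn (19.9), Snrpg (29.8), Rbm43 (30) and Snrnp35 (32.6), so 3 of the lowest 5 means belong to Sm ring genes.

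**Figure D2:**
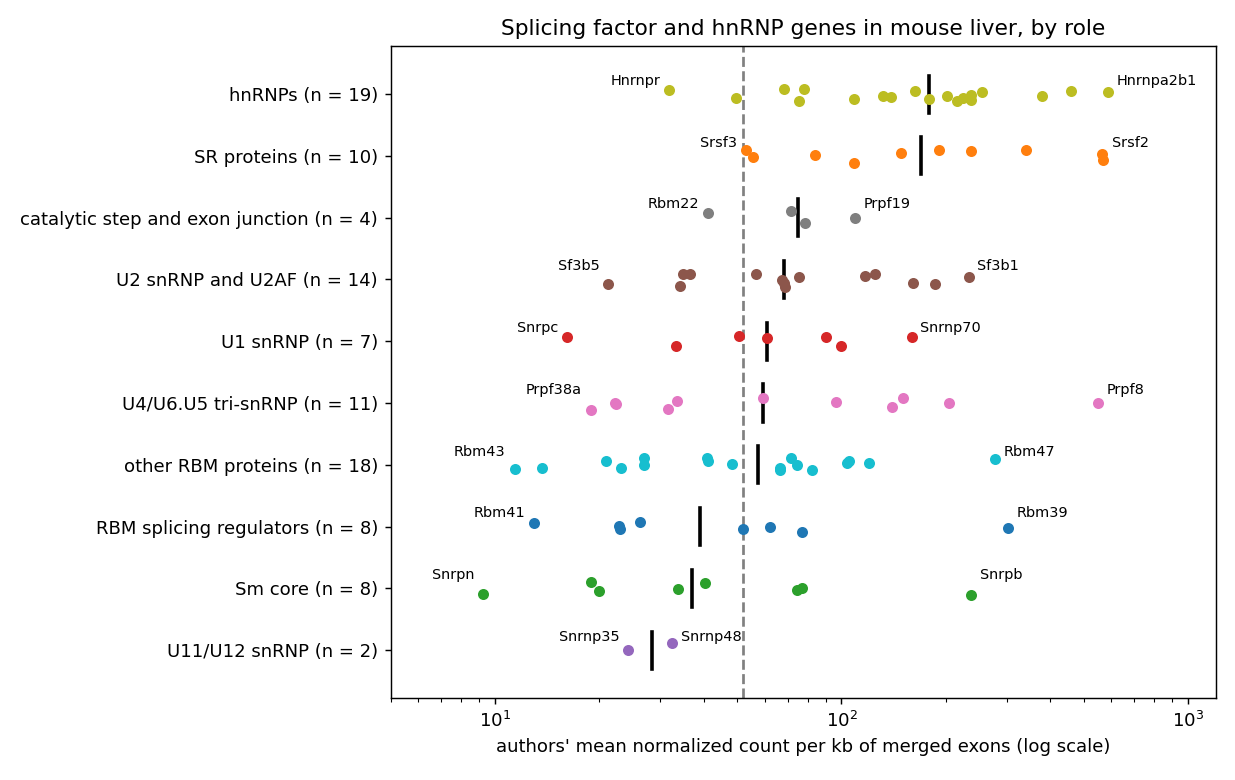
Authors' mean normalized count per exon kb (log scale) of each of the 101 genes, 1 point a gene, in 10 role groups. Black bars are group medians, the dashed line is the median of listed protein-coding genes (52.1), and the highest and lowest gene of each group are named. All 10 SR protein genes and 17 of 19 hnRNP genes lie to the right of the line, and both U11/U12 genes lie to the left.

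The U1 snRNP group spanned the protein-coding median. Snrnp70, the protein that binds the first stem-loop of U1 RNA, stood at 159 per exon kb, and Rbm25, which associates with U1, stood at 99.8. Snrpa, which binds a loop of U1 RNA, was at 61, the median of the group, with Prpf39 at 50.7 and Prpf40b at 33.4. Snrpc, which helps U1 hold the 5′ splice site, was lowest at 16.2. Of the 7 genes in the group, 4 were above and 3 below the protein-coding median. The ratio of Snrnp70 to Snrpc, both specific to the U1 particle, was 9.85 per exon kb. The place of Snrpc changed with the length used, as its merged exons cover 6521 bases and its coding sequence 546. Per coding kb Snrpc stood at 193, the 54th percentile of protein-coding genes, and Snrnp70 at 904.

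The Sm ring is shared by the U1, U2, U4 and U5 snRNPs and holds each of its proteins in a single copy. The mRNA levels of its genes covered a wide range. Snrpb, which encodes SmB, was highest at 237 per exon kb. Snrpe was at 76.7, Snrpd3 at 74.4, Snrpd2 at 40.3 and Snrpd1 at 33.8. Snrpf at 20 and Snrpg at 19 were lower, and Snrpn, an imprinted relative of Snrpb known mainly from brain, was lowest at 9.24. The ratio of highest to lowest was 25.6. Of the 8 genes, 3 were above the protein-coding median per exon kb, and the median of the group was at the 39.5 percentile. The direction depended on the length scale, since the group's median was at the 60 percentile per coding kb, with 5 of 8 above. Per kb of the transcript with the longest coding sequence, the group's median was at the 48.3 percentile. Sm proteins are very short, with coding sequences of 228 to 720 bases in these genes, and short genes rank high per coding kb. Among the 1880 other listed protein-coding genes with coding sequences in that range, the medians were 63.7 per exon kb and 344 per coding kb. On either scale, 3 of 8 Sm genes lay above the median of these short genes, Snrpb, Snrpe and Snrpd3. Sequence shared with pseudogenes covered 21.3% of the 50-base words of Snrpf and 11.3% of those of Snrpg, and its part in their low counts was not tested. Per coding kb, Snrpf stood at 66.7 and Snrpd3 at 677, although their proteins sit in the same ring.

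The genes of the U2 snRNP and U2AF were above the protein-coding median in 10 of 14 cases, with a median of 68.4 per exon kb. Sf3b1, the large subunit of SF3B that clasps the branch helix, was highest at 233, and Sf3b2, its partner, was at 186. U2af2, which binds the polypyrimidine tract, was at 160.3, and U2af1, which reads the AG at the 3′ splice site, was at 125. Rbm17, also known as SPF45, was at 117. The SF3A subunits were close to each other, with Sf3a1 at 68.7, Sf3a3 at 68.2 and Sf3a2 at 56.7. Within SF3B, Sf3b3 stood at 75.4, Sf3b6 at 67.5, Sf3b4 at 34.1 and Sf3b5 at 21.3. The U2-specific proteins Snrpa1 and Snrpb2 were at 36.6 and 34.9. The level of Sf3b5 also turned with the scale: a single coding exon of 258 bases within 3841 exonic bases put it at 316 per coding kb, the 67.3 percentile, against the 25.2 percentile per exon kb. Sf3b4 stayed low on both scales, at 58 per coding kb, and 43.6% of its words are shared with the pseudogene Gm7935.

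In the tri-snRNP group, the protein at the heart of the spliceosome stood apart per exon kb. Prpf8, which cradles the catalytic RNAs, had a mean of 4104 and a level of 550.1 per exon kb, and Snrnp200, the helicase that unwinds U4 from U6, was at 204. Prpf4b, a kinase of tri-snRNP proteins, was at 150.5 and Prpf6, which bridges U5 and U4/U6, was at 139.5. Prpf38b was at 96.5 and Snrnp27 at 59.3. The other 5 genes, Prpf4 (33.6), Prpf3 (31.5), Snrnp40 (22.4), Prpf31 (22.3) and Prpf38a (18.9), were below the protein-coding median. Snrnp40 belongs to U5 with Prpf8 and Snrnp200, while Prpf3, Prpf4 and Prpf31 belong to U4/U6. The ratio of highest to lowest was 29.1 per exon kb (Prpf8 over Prpf38a) and 7.24 per coding kb (Prpf8 over Prpf31). The coding sequence of Prpf8 has 7005 of its 7461 exonic bases, and that of Snrnp200 has 6408 of 7819. Per coding kb Prpf8 stood at 586 (the 80.2 percentile) and Snrnp200 at 249 (the 61.1 percentile). Prpf8 was still the highest of the group on that scale, but Prpf4b at 420.0 and Prpf38b at 412 were closer to it.

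The U11/U12 snRNP belongs to the minor spliceosome, which removes a rare class of introns, and the group of this name held 2 listed genes. Snrnp48 stood at 32.5 and Snrnp35 at 24.2 per exon kb, both below the protein-coding median. Per coding kb Snrnp48 was at 326, above the median of 168, and Snrnp35 at 44.6, below it. Snrnp25 was not among the listed genes. In the group of the catalytic step and the exon junction, Prpf19, the ubiquitin ligase after which a spliceosomal complex is named, was highest at 109.5 per exon kb. Rbm8a, the exon junction protein Y14, was at 78.5 and Prpf18, a second-step factor, at 71.4. Rbm22, which contacts U6 in the active spliceosome, was at 41.3, below the median. Per coding kb all 4 were above, with Rbm22 at 175 against 168.

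SR protein genes were the group most uniformly above the protein-coding median, with 10 of 10 above and a median of 169.9 per exon kb, the 80.6 percentile. Srsf2 (SC35), Srsf5 and Srsf6 stood at 570.0, 563 and 340.4. Srsf1 (SF2), a founding member of the family, was at 237, Srsf4 at 191, Srsf11 at 149 and Srsf9 at 109. Srsf7 at 84.1, Srsf10 at 55.6 and Srsf3 at 53.1 were closer to the median of protein-coding genes. Many SR genes make poison-exon or intron-retaining transcripts, but which transcripts lengthen the merged exons was not examined here. The low place of Srsf3 changed with the scale. Its merged exons cover 7899 bases and its coding sequence 492, and per coding kb it stood at 853, the 86.1 percentile. Per coding kb, the order began with Srsf5 at 2773, Srsf2 at 2543, Srsf1 at 1783 and Srsf6 at 1610.1, and the lowest was Srsf9 at 270.5, still above 168. Srsf12 was not among the listed genes.

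The 19 hnRNP genes had the highest median, 179 per exon kb, and made up 32.7% of the members' summed counts. Per coding kb their median of 623 was below that of the SR protein genes, 836. By mean normalized count and per coding kb all 19 were above the protein-coding medians, and per exon kb 17 were. Genes whose symbol starts with Hnrnpa were all high: Hnrnpa2b1 at 589, Hnrnpab at 459.9, Hnrnpa0 at 255, Hnrnpa3 at 225 and Hnrnpa1 at 179. Hnrnpu, a large nuclear scaffold protein, had the highest mean of all members and stood at 379, with its relatives Hnrnpul2 at 202 and Hnrnpul1 at 131. Hnrnpc, which coats long uridine tracts and forms tetramers, was at 216. Among the poly(G)-binding F/H proteins, Hnrnph1 was at 236, Hnrnpf at 108, Hnrnph3 at 78 and Hnrnph2 at 75.6. Hnrnpl, which binds CA repeats, was at 236, whereas its paralog Hnrnpll, known from lymphocytes, was at 49.6. Hnrnpdl stood at 163, Hnrnpm at 139 and Hnrnpd (AUF1), which also controls mRNA decay, at 68.1. Hnrnpr was lowest at 31.8, with merged exons of 22199 bases, and at 373 per coding kb it was at the 71.3 percentile. Hnrnpa1 and Hnrnpa3 share 28.2% and 27.1% of their words with other genes, with 19 and 41 pseudogenes respectively, and stood at the 81.6 and 85.4 percentiles per exon kb.

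Genes of RBM splicing regulators were lower, with 3 of 8 above the protein-coding median and a median of 39.1 per exon kb. Rbm39, a U2AF-like factor and the target of aryl sulfonamide degraders, was far above the others at 303. Rbm10 and Rbm5, related regulators of exon skipping, stood at 77.1 and 62.4, and Rbm6, from the same family, was at 52. Rbm4 was at 26.1, Rbm4b at 23 and Rbm48 at 22.8. Rbm41 was lowest at 12.9. Here too the length mattered: Rbm5 and Rbm6 have merged exons of 15434 and 13944 bases, and per coding kb they stood at 394 and 216 against 103 for Rbm10, so their order against Rbm10 turned. On the transcript with the longest coding sequence, the median of the group moved from the 40 to the 56.4 percentile. Rbm20 and Rbm24, known from striated muscle, and Rbm11 were not among the listed genes.

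The 18 other RBM genes encode proteins of mixed function and split evenly, with 9 above and 9 below the protein-coding median per exon kb. Rbm47, a cofactor of apolipoprotein B mRNA editing, was highest at 277, followed by Rbm33 at 120.4 and Rbm15, which guides the m6A writer complex, at 105. Rbm7, part of the complex that targets nuclear RNA to the exosome, was at 104, and the related Rbm26 and Rbm27 were at 82.1 and 71.3. Rbm3, induced by cold, was at 66.7, and Rbm15b, a paralog of Rbm15, was at 66.6. Rbm45 stood at 74.4. Below the median were Rbm28 at 48.3, Rbm19 at 41.2 and Rbm34 at 23.1, with Rbm18 at 41. Rbm12 and Rbm12b2 were both at 27 and Rbm12b1 was at 21. Rbm38, a p53 target in cells, was at 13.7 and Rbm43 was lowest at 11.4. Per coding kb 7 of 18 were above the median, and the median of the group fell to the 43.4 percentile.

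Between the length scales, 18 of the 101 members changed sides of the protein-coding median. Below it per exon kb and above it per coding kb were 12: Rbm6, Prpf39, Hnrnpll, Rbm22, Rbm18, Snrpd2, Snrpd1, Snrnp48, Hnrnpr, Rbm4b, Sf3b5 and Snrpc. Among them, Rbm18 moved from the 42.5 to the 74 percentile, Hnrnpll from 48.5 to 68, Prpf39 from 49.1 to 66.3 and Rbm4b from 27 to 56.9. The reverse held for 6: Rbm10, Rbm45, Rbm27, Sf3a3, Rbm15b and Sf3a2. Among these, Rbm45 moved from the 60.6 to the 35.1 percentile and Rbm27 from 59.2 to 46.2. Statements above on which members lie above or below the median hold for the scale named with them.

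**Figure D3:**
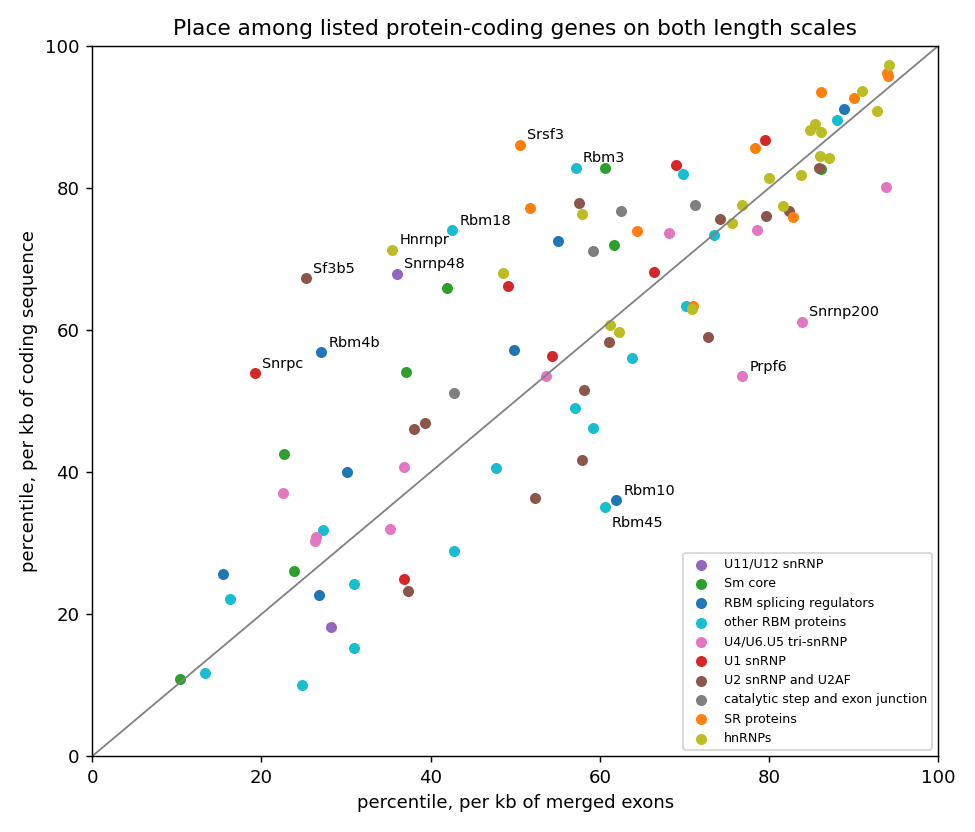
Percentile of each of the 101 genes among listed protein-coding genes, per exon kb (horizontal axis) and per coding kb (vertical axis), coloured by role, with the diagonal of equal place. The 8 genes with the largest rise and the 4 with the largest drop in percentile are named: Srsf3, Snrpc, Sf3b5 and Hnrnpr are among those above the diagonal, and Snrnp200, Prpf6, Rbm10 and Rbm45 lie below it.

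Sequence shared with other genes was uneven among the members. Every 50-base word of each member's annotated transcripts was looked up in the transcripts of all other genes of the GRCm38 annotation. The median member shared 0.591% of its words, 29 shared none, 54 shared with at least 1 pseudogene, and 17 shared over 10%. The largest shares were those of Rbm12b1 (59.7%) and Rbm12b2 (55.1%) with each other, and of Rbm4 (57.5%), all of it also found in the annotated gene Gm21992. That gene has a mean of 19.3 and Rbm4 one of 129, and reads on the common part cannot be assigned to either gene. Shared words do not tell a copy elsewhere from a gene model that overlaps the same place. Positions were not compared for Gm21992, nor for Gm28036 and Gm38393 below. Rbm12b1 had a mean of 65.4 and Rbm12b2 one of 93.6. These values are uncertain because reads on the part common to both genes cannot be placed on one of them. Rbm10 shared 41%, Hnrnpf 36.8% and Rbm12 33.1%, the last mainly with the annotated gene Gm28036. Snrpn shared 21.7%, mostly with Gm38393, and U2af1 21.7%, U2af2 14.7%, Hnrnph2 15.9% and Srsf5 10.1%, mostly with pseudogenes. Hnrnpm shared 13.5% with March2. The 17 genes over 10% had a median of 75.6 per exon kb, with 9 above the protein-coding median, and the other 84 had a median of 72.9. The part of shared sequence in any single level was not tested.

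**Figure D4:**
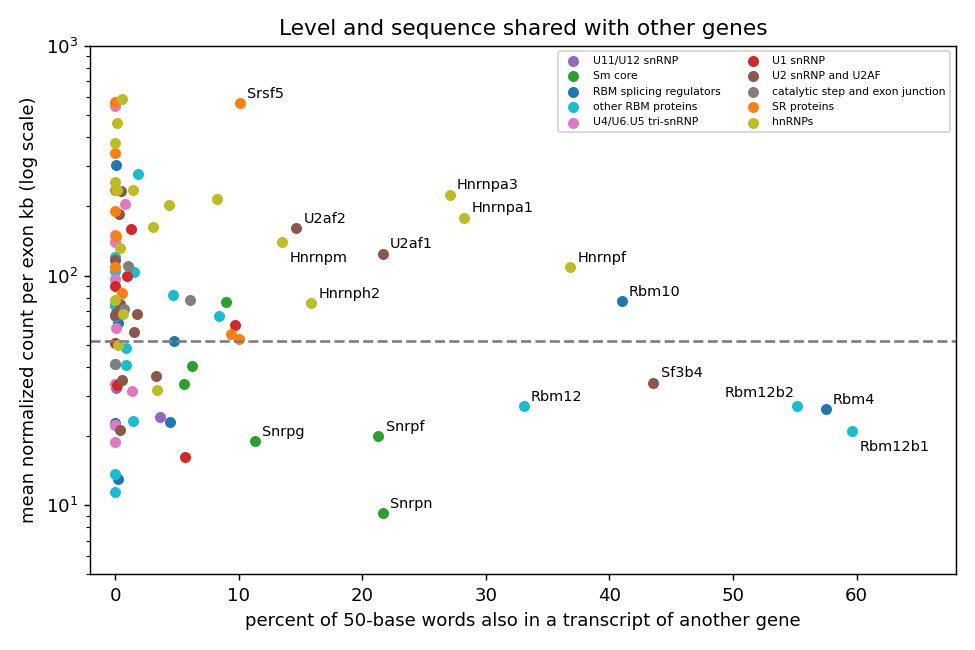
Mean normalized count per exon kb (log scale) against the percent of a gene's 50-base words that also occur in a transcript of another gene, 1 point a gene, coloured by role; the dashed line is the protein-coding median (52.1). Genes over 10% are named, and they lie both above the line (Srsf5, Hnrnpa3, Hnrnpa1) and below it (Rbm12b1, Rbm4, Snrpf, Snrpn).

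The promoter windows of the members were mostly CpG-rich. RefSeq promoter windows of GRCm38.p6, from 250 bases before to 50 after the start, were found for 85 members and 9156 listed protein-coding genes. Only the window listed first was kept for each gene, and whether its start is the one used in liver was not examined. The ratio of observed to expected CpG had a median of 0.903 in the members against 0.766, and it was over 0.6 in 78 of 85 members (91.8%) against 71.6%. The median GC content was 59% against 60.7%. The 7 members at or under 0.6 in the window kept were Rbm25 (0), Snrpn (0.132), Rbm41 (0.343), Snrpa1 (0.365), Hnrnpf (0.384), Rbm45 (0.57) and Rbm43 (0.598). They include 3 of the 5 members lowest per exon kb, Snrpn, Rbm41 and Rbm43, named after their values were seen. Of the others, Rbm25, Hnrnpf and Rbm45 lay above the protein-coding median per exon kb and Snrpa1 below it. Of 17 motifs searched on both strands, the CTCGCGAG element was present in 7.06% of member windows against 1.98% of all. It was in Hnrnph1, Rbm15, Rbm26, Rbm39, Srsf10 and Srsf4. The CRE core TGACGT was in 24.7% against 12% and the ETS core CCGGAAG in 28.2% against 18.7%. The TATA letters TATAAA were in 12.9% against 7.32%. The GC box GGGCGG (63.5% against 64.2%), the E-box CACGTG (11.8% against 10.3%) and the CCAAT box (44.7% against 38.4%) were nearer to the share in all windows. Some letters were less frequent in the members, such as the pyrimidine run TTTCCT (16.5% against 23.9%) and the NRF1 core CGCATGCG (3.53% against 4.04%). These shares describe letters in the windows and were not tested, and the longer motifs overlap shorter ones.

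Genes that work with these factors but lie outside the symbol pattern were also mostly above the protein-coding median. Of 77 such genes in 8 fixed lists, 74 were listed, their median was 89.7 per exon kb and 52 were above 52.1. Splicing helicases and a GTPase (median 111, 10 of 12 above) ran from Ddx5 at 990.4 to Aqr at 38.3. Ddx5 was above every member and every other gene of these lists per exon kb. Per coding kb, 7 of the 12 were above the protein-coding median, and Ddx5 at 3100.0 was below Hnrnpa2b1 at 3661. Among hnRNP-like proteins (median 116, 11 of 15 above), Pcbp1 was at 804 and Rbmxl1 at 21.4. Other splicing regulators (median 123, 11 of 14 above) ran from Ptbp3 at 268 to Celf2 at 9.74. Esrp2, an epithelial splicing regulator of hepatocytes, was at 238, and its paralog Esrp1 was not listed. In the exon junction complex (median 124, 3 of 4 above), Eif4a3 was at 165 and Rnps1 at 17.5. SR-related proteins (median 92.4, 7 of 8 above) ran from Srrm2, a large scaffold of nuclear speckles, at 442 to Tra2b at 46.8. Subunits of the complex named after Prpf19 (NTC, median 75.7, 5 of 8 above) ran from Bud31 at 144 to Isy1 at 20.8. Kinases that phosphorylate SR proteins (median 68.9, 4 of 7 above) ran from Clk1 at 142 to Srpk2 at 20.4. The LSm ring, the U6 counterpart of the Sm ring, was the lowest list per exon kb, with a median of 19.6 and 1 of 6 above. Within it, Lsm4 was at 79.6 and Lsm3 at 7.49. Per coding kb, 4 of 6 LSm genes were above the protein-coding median of 168 and the list median was 173. The NTC list was then the lowest, with a median of 159 and 3 of 8 above, and Tra2b moved from the 46.8 to the 77.4 percentile. The genes of both rings, Sm and LSm, thus had medians under 52.1 per exon kb, and both had medians above 168 per coding kb. Per kb of the transcript with the longest coding sequence, their median percentiles were 48.3 and 44.6. The Sm median per coding kb, 246, was below the 344 of other genes with coding sequences as short. The LSm genes were not set against genes of their length.

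**Figure D5:**
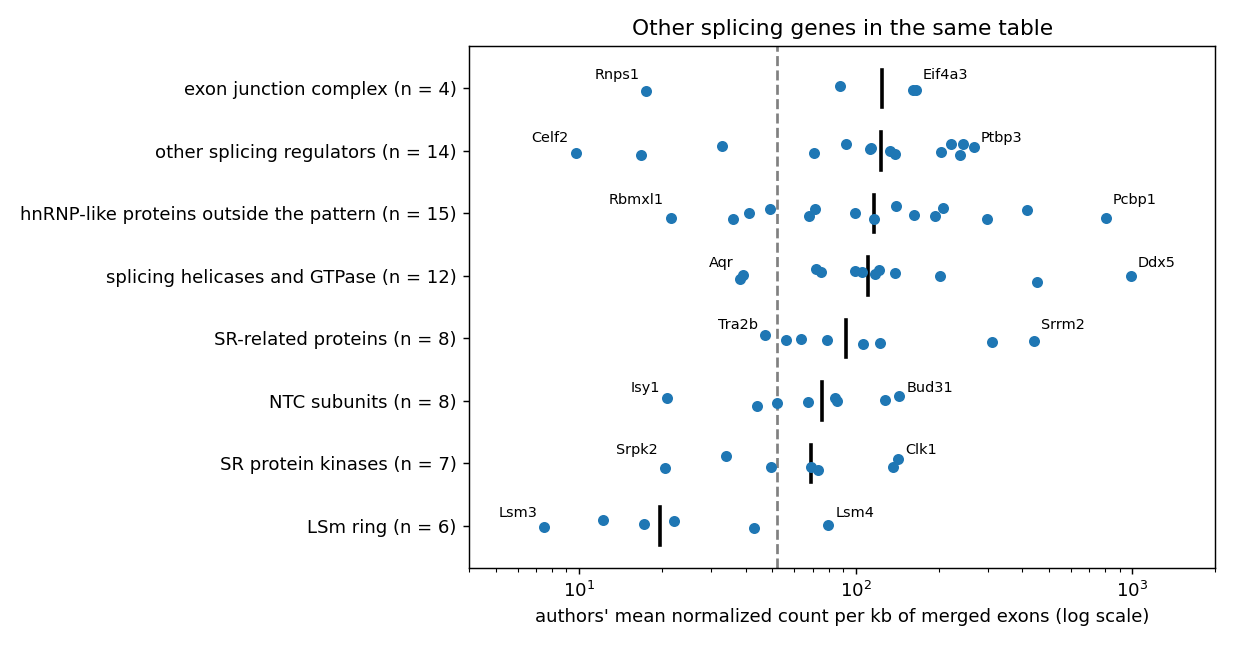
Authors' mean normalized count per exon kb (log scale) of 74 splicing genes outside the symbol pattern, 1 point a gene, in 8 lists. Black bars are list medians, the dashed line is the median of listed protein-coding genes (52.1), and the highest and lowest gene of each list are named. The LSm ring (median 19.6) is the list with its median left of the line on this scale.

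The tissue was that of the label. All 8 hepatocyte markers were listed, with Alb at a mean of 1217472. Markers of other liver cells were present too: 8 of 8 of Kupffer cells and macrophages (highest Clec4f), 6 of 6 of endothelial cells (Clec4g) and 7 of 7 of stellate cells (Dcn). Of cholangiocyte markers 2 of 5 were listed (highest Spp1), of T, NK and B cell markers 1 of 6 (Cd3e) and of erythroid markers 2 of 3 (Hba-a1). Splicing factors are used by every one of these cells, and in bulk liver the number of cells of a type and the RNA per cell cannot be told apart.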

How the data were processed

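RNA from 3 Liver LL35 ASO and 3 Liver Luc ASO livers was analysed. According to the study's methods and the submitters' processing notes, TRIzol RNA was depleted of rRNA and made into directional NEBNext Ultra II libraries. The authors aligned and counted single reads on Ensembl genes with STAR 2.5.3a and normalized them by the RLE method of DESeq2. The genome build is not given in the sources used here. The deposited values are means of normalized counts, a signal that the authors averaged over the libraries they compared, with none for a single mouse. Its other 5 columns, the authors' own fold change, standard error, statistic, p-value and adjusted p-value, were not used. Reads per mouse, and so depth and precision, are unknown, and no test was made.

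Genes were matched by Ensembl identifier to GENCODE M21 (GRCm38), which gave exon lengths for 11754 listed genes and coding lengths for 11362 protein-coding ones. A percentile is the percent of listed protein-coding genes with a lower level. The members, 10 role groups and all lists were chosen with earlier results of these data known. The text names the 3 highest and the lowest member of each role group per exon kb, the 10 highest over all, the 5 lowest means, and the highest and lowest gene of each list (for marker lists the highest). Other genes were named to complete their group or after their values were seen, and 1 gene that the rule selects is not reported here. Protein identity was not analysed here, and shared 50-base words, chosen after seeing the data, took its place. Alternatives changed the length, a minimum mean of 50, the genes summed and the grouping. Steps were tested on simulated data, with Python 3.11.15, numpy 2.4.6, pandas 2.3.3 and matplotlib 3.10.9.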

Additional observations from a re-analysis of the deposited data

How the results depend on the processing

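Of 64 alternative values, 53 stayed within 1.5 times of the reported value and, for median percentiles, on their side of the protein-coding median. Another 4 moved farther and 7 crossed the median. The share of the summed level held by the members was 0.328% with values per exon kb, against 0.619%. The ratio of the highest to the lowest member was 63.8 per exon kb, 140.3 per coding kb and 234 per kb of the transcript with the longest coding sequence. The median percentile of the Sm core was 39.5 per exon kb, 60 per coding kb and 48.3 per transcript kb. That of RBM splicing regulators was 40 and, per transcript kb, 56.4. That of other RBM proteins was 52.4, and 48.4 as a geometric mean, 43.4 per coding kb and 45.4 per transcript kb. Outside the symbol pattern, the median percentile of the LSm ring was 23.3, and 50.8 per coding kb and 44.6 per transcript kb, and that of NTC subunits was 60.9, and 48.4 per coding kb. In each case a length or a kind of average was exchanged with the counts kept as they were. The lengths taken from GENCODE were added after seeing the data, in place of lengths from RefSeq proteins, which were not used here. The alternative on protein sequence features was not run. No paired analysis was possible because the deposited value is a mean over libraries and no test was made, and no single mouse could be left out. The unknown depth limits most the members with means near the lowest listed value, such as Snrpf and Snrpn.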
